A study of Mus musculus with 2 samples.

Results

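The 6 microRNA (miRNA) genes described here, Mir10a, Mir10b, Mir196a-1, Mir196a-2, Mir196b and Mir615, lie inside the Hox clusters of the mouse genome. They were chosen by gene symbol, and they are 6 of the 1973 miRNA genes measured. All 6 had a row in the deposited tables. Small RNA under 30 bases from lungs of B6NCrl mice, a C57BL/6N substrain, was sequenced on postnatal day 0. There is 1 group, with 2 libraries and with no treatment and no genetic change named in the labels. Replicate 1 came from both lungs of pup 1 and replicate 2 from both lungs of pup 3 of the same pregnancy, with sex not collected. Both libraries carry the same donor record, and only the description of each sample names separate pups.

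Hox genes encode transcription factors that set position along the head-to-tail axis of the embryo. In each cluster the genes lie in order, from group 1, which acts towards the head, to group 13, which acts towards the tail. The miR-10 genes sit near Hox group 4 and the miR-196 genes near Hox groups 9 and 10, and their transcription tends to follow the region of the neighbouring Hox genes. Mature miR-10 is known from mesenchymal and endothelial cells of many organs. Mature miR-196 is known for silencing Hox mRNAs in the posterior body, and miR-615 is encoded within a Hoxc5 intron.

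The mature sequences are shown first because they decide which reads can be told apart. They are RefSeq sequences on GRCm38.p6, written 5′ to 3′ with the seed, bases 2 to 8, in capitals, and all 6 genes were matched. The main arms fall into 3 seed groups.
miR-10a-5p: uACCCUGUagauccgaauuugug
miR-10b-5p: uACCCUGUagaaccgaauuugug
miR-196a-5p: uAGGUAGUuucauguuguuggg
miR-196b-5p: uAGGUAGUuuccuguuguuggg
miR-615-3p: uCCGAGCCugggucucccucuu
miR-10a-5p and miR-10b-5p share the seed ACCCUGU and differ by 1 base of 23, U12A, with positions counted from 1 at the 5′ end and the base of miR-10a first. miR-196a-5p and miR-196b-5p share the seed AGGUAGU and differ by 1 base of 22, A12C, with the base of miR-196a first. In both families the difference lies outside the seed. Among the 1738 mature entries of the RefSeq table, none of another gene had the seed of any arm of these 6 genes.

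The 3p arms differ more. miR-10a-3p and miR-10b-3p differ at 3 positions, A3G, U9A and A10U, with the base of miR-10a first. The first of these lies in the seed, so the 3p arms of the pair have different seeds.
miR-10a-3p: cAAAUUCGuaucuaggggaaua
miR-10b-3p: cAGAUUCGauucuaggggaaua
miR-196a-1-3p: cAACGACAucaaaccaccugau
miR-196a-2-3p: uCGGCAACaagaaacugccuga
miR-196b-3p: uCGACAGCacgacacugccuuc
miR-615-5p: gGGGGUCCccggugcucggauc
The deposited counts add up both arms of a precursor, so how the reads divided between the arms was not measured.

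The Mir196a precursors are shown to mark what they share, with the mature arms in capitals.
Mir196a-1: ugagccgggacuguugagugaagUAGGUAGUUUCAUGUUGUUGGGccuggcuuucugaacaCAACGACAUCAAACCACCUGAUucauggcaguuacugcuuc
Mir196a-2: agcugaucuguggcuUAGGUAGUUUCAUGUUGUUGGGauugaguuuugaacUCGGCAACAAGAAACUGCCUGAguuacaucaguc
The longest run these precursors share is the 22-base miR-196a-5p itself, which occurs in full in both. A read of exactly that sequence therefore has at least 2 positions in the genome. The gene rows were taken to hold only reads with a single position, so such reads are in neither row and the levels of Mir196a-1 and Mir196a-2 can be too low. For the other 4 genes the longest run found in another of 1894 precursors searched was 12 to 15 bases. Mir10a and Mir10b share the 15 bases UAUAUACCCUGUAGA, which end before the base that tells their 5p arms apart.

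The genes are spread over all 4 Hox clusters. No other row with a position in GENCODE M21 lay between the outermost Hox genes of a cluster, and 79 rows without a match there could not be placed. Positions are on GRCm38 (mm10) with GENCODE M21. Mir10a (ENSMUSG00000065519.1) lies at chr11:96317165-96317274 on the plus strand in the HoxB cluster. It is between genes, 993 bases before Hoxb4 and 11044 bases after Hoxb5. Mir10b (ENSMUSG00000065500.2) lies at chr2:74726070-74726137 on the plus strand in the HoxD cluster, in introns of Hoxd3 and Hoxd4 transcripts. The miR-10 pair thus holds equivalent places in 2 clusters.

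Mir196a-1 (ENSMUSG00000065546.1) lies at chr11:96265164-96265265 on the plus strand in HoxB, between Hoxb13 and Hoxb9 and 6192 bases before Hoxb9. Mir196a-2 (ENSMUSG00000065488.1) lies at chr15:102973350-102973434 on the plus strand in HoxC, 1457 bases after Hoxc10 and 3005 bases before Hoxc9. It is in an intron of a long Hoxc5 transcript. Mir196b (ENSMUSG00000065443.1) lies at chr6:52230081-52230165 on the minus strand in HoxA, 1032 bases after Hoxa10. It overlaps exons of 2 Hoxa9 transcripts annotated as non-coding, and neither coding sequence nor an annotated UTR covers it. Mir615 (ENSMUSG00000076010.1) lies at chr15:103014910-103015001 on the plus strand in HoxC, in an intron of Hoxc5. The map of the clusters shows these places beside the levels.

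**Figure D1:**
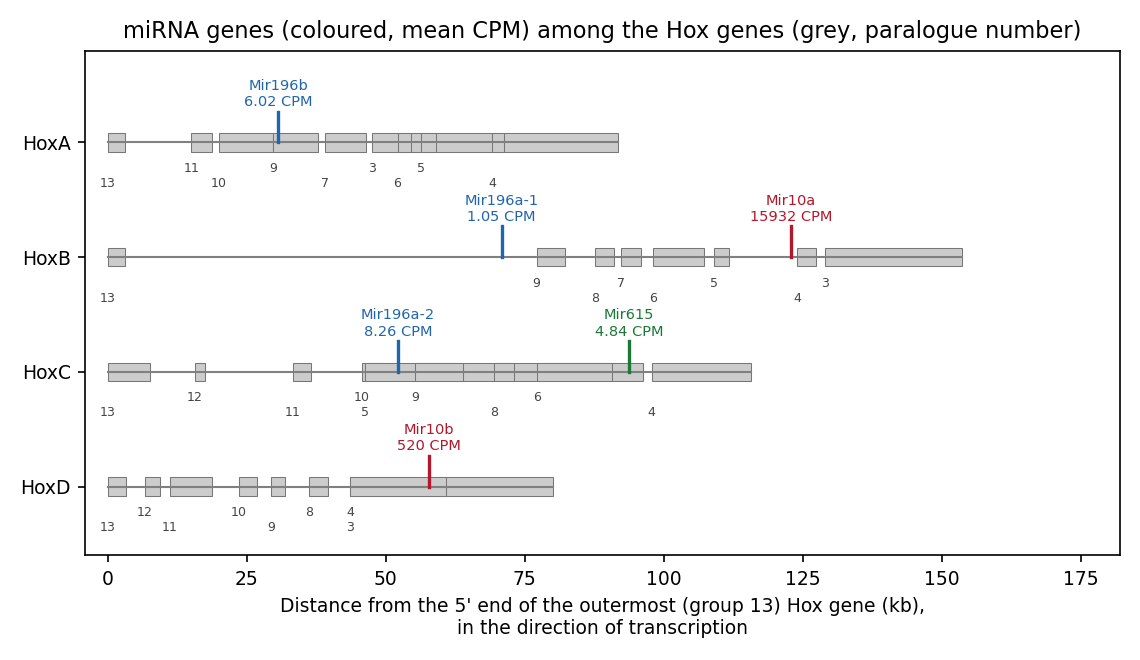
Map of the 4 mouse Hox clusters. The horizontal axis is the distance in kb from the 5′ end of the group 13 Hox gene, in the direction of transcription. Grey boxes are annotated Hox genes of groups 3 to 13 with their paralogue numbers, including long transcripts that span neighbouring genes. Coloured lines are the miRNA genes with their mean level over 2 libraries in counts per 1000000 reads on miRNA genes (CPM). The miR-10 genes (red) stand near group 4 at 15932 and 520.4 CPM, while the miR-196 genes (blue) stand between groups 13 and 9 or within the Hoxa9 gene model at 1.05 to 8.26 CPM.

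Reads on miRNA genes numbered 4532902 in replicate 1 and 5426081 in replicate 2, and levels are counts per 1000000 of these reads (CPM). The libraries differed beyond sampling noise, with a chi-square statistic 75.2 times its 374 degrees of freedom. Intervals are exact Clopper-Pearson 95% intervals, and they and the floor of 3 reads (0.662 and 0.553 CPM in replicates 1 and 2) cover counting error only, since copies made by PCR are not independent molecules. The tissue label was checked against marker miRNAs. All 6 listed lung epithelium genes had at least 10 reads in each library and summed to 32744 and 32592 CPM, and the endothelial Mir126a stood at 160640 and 160658 CPM. Liver markers summed to 201 and 186 CPM, and heart and skeletal muscle markers to 416 and 455 CPM. The 2 listed markers of squamous epithelium of skin and oesophagus, Mir203 and Mir205, were higher and summed to 1691 and 1735 CPM. Rows of multi-copy miRNAs at 0, such as Mir1a-1, Mir133a-1 and Mir133a-2, and the neural rows Mir9-2 and Mir9-3, say nothing of these tissues, since reads with several positions are not counted. Sums of lists with multi-copy miRNAs, heart and skeletal muscle among them, can be too low for the same reason.

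The miR-10 genes were far above the other Hox cluster miRNAs. Mir10a was at 15047 CPM in replicate 1 and 16816 CPM in replicate 2, from 68208 and 91245 reads, a mean of 15932 ± 1251 CPM (SD, n = 2). This is 1.59% ± 0.125 of all reads counted on miRNA genes, and rank 15 of 1973. Reads with several positions are in neither the rows nor this total. Shares can therefore be too high, and multi-copy miRNAs can rank too low beside these genes. Mir10b was at 485 and 555 CPM, from 2200 and 3014 reads, a mean of 520.4 ± 49.6 CPM (SD, n = 2) and rank 101. The lowest Mir10a level stood above the highest Mir10b level, and the libraries of each gene lay close together.

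The miR-196 genes and Mir615 were measured from 43 reads or fewer in each library. Mir196a-2 was at 8.60 and 7.92 CPM in replicates 1 and 2, from 39 and 43 reads, a mean of 8.26 ± 0.480 CPM (SD, n = 2) and rank 260. Mir196b was at 4.85 and 7.19 CPM, from 22 and 39 reads, a mean of 6.02 ± 1.65 CPM and rank 273. Mir615 was at 3.97 and 5.71 CPM, from 18 and 31 reads, a mean of 4.84 ± 1.23 CPM and rank 282. All 3 were above the floor in both libraries. Mir196a-1 had 2 reads in replicate 1, which is under the floor of 3 reads, and 9 in replicate 2, or 0.441 and 1.66 CPM. Its interval ran from 0.0534 to 1.59 CPM in replicate 1 and from 0.758 to 3.15 CPM in replicate 2, which overlap.

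Of the 6 genes, 5 had at least 10 reads in each library, and Mir196a-1 did not. Over all 1973 rows this share was 15.6%. At 100 reads in each library only the 2 miR-10 genes were left. In falling order of mean level the genes were Mir10a, Mir10b, Mir196a-2, Mir196b, Mir615 and Mir196a-1, and this order was the same in both libraries. The ranges of Mir196b and Mir615 over the libraries overlapped. Mir196a-2 was above Mir196b in both, but their counting intervals overlapped in each library. For Mir196a-2 that interval was 6.12 to 11.8 CPM in replicate 1 and 5.74 to 10.7 CPM in replicate 2, and for Mir196b it was 3.04 to 7.35 CPM and 5.11 to 9.83 CPM.

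**Figure D2:**
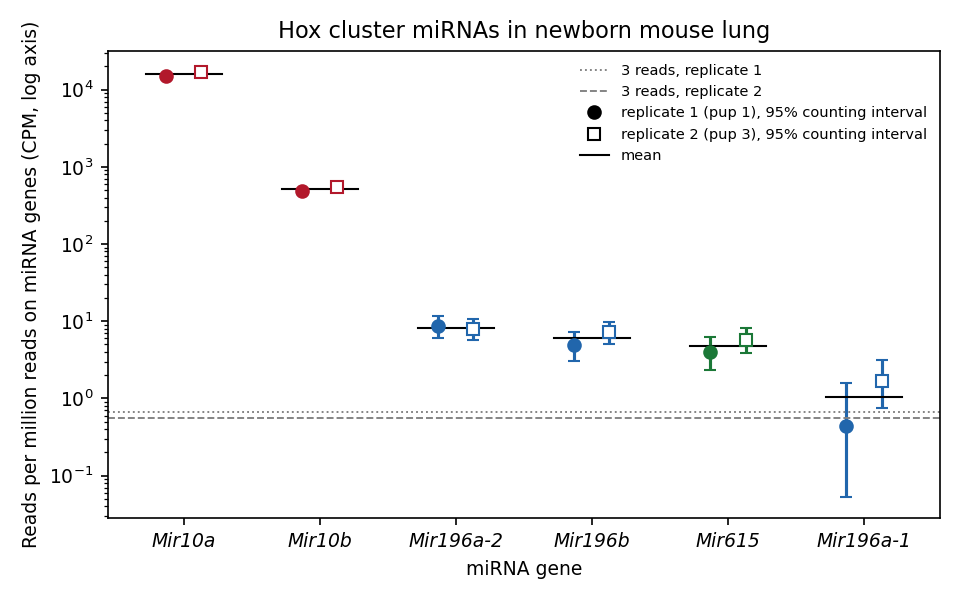
Level of each Hox cluster miRNA gene in CPM on a log axis. Filled circles are replicate 1 and open squares replicate 2, with exact 95% counting intervals, black lines are means of 2 libraries, and dashed lines are the level of 3 reads in each library. Mir10a at 15932 CPM and Mir10b at 520.4 CPM stand above the other 4 genes, which lie between 1.05 and 8.26 CPM, and only Mir196a-1 falls under the level of 3 reads, in replicate 1.

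Paralogous genes were compared next, by their ratio within each library. Mir10a exceeded Mir10b by a ratio of 31.0 (95% interval 29.7 to 32.4) in replicate 1 and 30.3 (29.2 to 31.4) in replicate 2, a mean log2 ratio of 4.94 ± 0.024 (SD, n = 2). The intervals overlap, and a difference in this ratio between the pups was not detectable at this depth. No p-value is given for these ratios, because an exact two-sided sign-flip test over 2 libraries cannot go below 0.5. The mature 5p sequences that this ratio compares have the same seed and differ by 1 base. A read with an error at that base could be counted for the other gene, which the intervals do not cover.

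Within the miR-196 family the ratios were less precise. Mir196b stood to Mir196a-2 at 0.564 (0.319 to 0.975) in replicate 1 and 0.907 (0.573 to 1.43) in replicate 2, a mean log2 ratio of -0.48 ± 0.48 (SD, n = 2). The interval included equality in replicate 2. Mir196a-1 stood to Mir196a-2 at 0.0513 (0.00600 to 0.198) and 0.209 (0.0897 to 0.435), a mean log2 ratio of -3.09 ± 1.26, with 0.5 reads added to each count for the log2 value. The HoxC copy thus exceeded the HoxB copy in both libraries, in reads that reach beyond the 22 bases they share or that come from the 3p arm or flanks. Mir196b exceeded Mir196a-1 by a log2 ratio of 2.61 ± 0.79. Since full-length miR-196a-5p reads have several positions, the order of Mir196b and the Mir196a genes in the tissue cannot be told from these rows.

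Summed by family, the miR-10 genes reached 16452 ± 1300 CPM (SD, n = 2) and the miR-196 genes 15.3 ± 2.03 CPM. The ratio of the families was 1118 (873 to 1455) in replicate 1 and 1036 (844 to 1287) in replicate 2, a mean log2 ratio of 10.06 ± 0.075. Uncounted miR-196a reads can make this ratio too high. Mir196b does not share that limit within the precursors searched, since none of the others held its 5p sequence in full. The miR-10 sum exceeded Mir615 by a log2 ratio of 11.72 ± 0.25, and the miR-196 sum exceeded Mir615 by 1.66 ± 0.17.

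By cluster, HoxB and HoxD members took nearly all of these reads. The HoxB members, Mir10a and Mir196a-1, held 96.8% of the reads on the 6 genes in replicate 1 (95% interval 96.6% to 96.9%) and 96.7% in replicate 2 (96.6% to 96.8%). The HoxD member, Mir10b, held 3.12% (2.99% to 3.25%) and 3.19% (3.08% to 3.31%). The HoxC members, Mir196a-2 and Mir615, held 0.0809% and 0.0784%, and the HoxA member, Mir196b, held 0.0312% and 0.0413%. HoxA has no miR-10 gene, and HoxD has no miR-196 gene among the rows measured. HoxB thus holds the row with the most reads, Mir10a, and the row with the fewest, Mir196a-1, whose level can be too low. Mir196a-2 shares this limit, so the HoxC share can be too low as well.

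The libraries were then compared gene by gene, by an exact binomial test, two-sided, on how each gene's reads divided, with Benjamini-Hochberg adjustment over 375 genes. This test compares 2 libraries, not conditions, and counts only sampling error. In bulk tissue, fewer cells of a type and less RNA per cell cannot be told apart. Of the 6 genes, 2 passed at an adjusted p under 0.05, against 42.4% of all genes tested. Both passed with the higher level in replicate 2, and 19.2% of all genes tested passed in that direction. Mir10a was higher in replicate 2 by 0.16 on the log2 scale (95% interval 0.15 to 0.17, adjusted p = 7.16e-106, exact test). Mir10b was higher in replicate 2 by 0.19 (0.11 to 0.27, adjusted p = 6.13e-06, exact test). The shift had nearly the same size for both miR-10 genes. It was smaller than the SD of 0.26 of the log2 ratio over the 233 genes that averaged 100 reads or more, of which 52.4% and 42.1% had a larger ratio in size than Mir10a and Mir10b.

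The other 4 genes did not pass. Mir196b had a log2 ratio of replicate 2 to replicate 1 of 0.57 (-0.22 to 1.39, adjusted p = 0.284, exact test), and Mir615 had 0.52 (-0.36 to 1.45, adjusted p = 0.402, exact test). Mir196a-1 had 1.91 (-0.36 to 5.16, adjusted p = 0.157, exact test). Mir196a-2 had -0.12 (-0.78 to 0.54, adjusted p = 0.873, exact test). These intervals are wide and leave room for differences of the size seen in the miR-10 genes. Over the 115 genes with 11 to 100 reads in all and a read in each library, the SD of the log2 ratio was 0.97.

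In direction, 5 of the 6 genes were higher in replicate 2, against 47.2% of all genes tested, and the median log2 ratio was 0.36 over the 6 and -0.028 over all tested. The single lower gene was Mir196a-2. The summed markers of mesenchyme and smooth muscle, of which 6 of 7 were detected and Mir145b was at 0, stood at 72030 and 75825 CPM in replicates 1 and 2. Only Mir143 of this list was higher in replicate 2, at 65604 and 70070 CPM, and the 5 other detected markers were lower, such as Mir214 at 4550 and 3943 CPM. Erythroid markers, all 3 detected, summed to 1306 and 1149 CPM. Among them Mir451a was lower in replicate 2, at 1064 and 716 CPM, and Mir144, at 228 and 415 CPM, and Mir486 were higher. Neither list moved in a single direction, and their part in the difference was not tested.

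**Figure D3:**
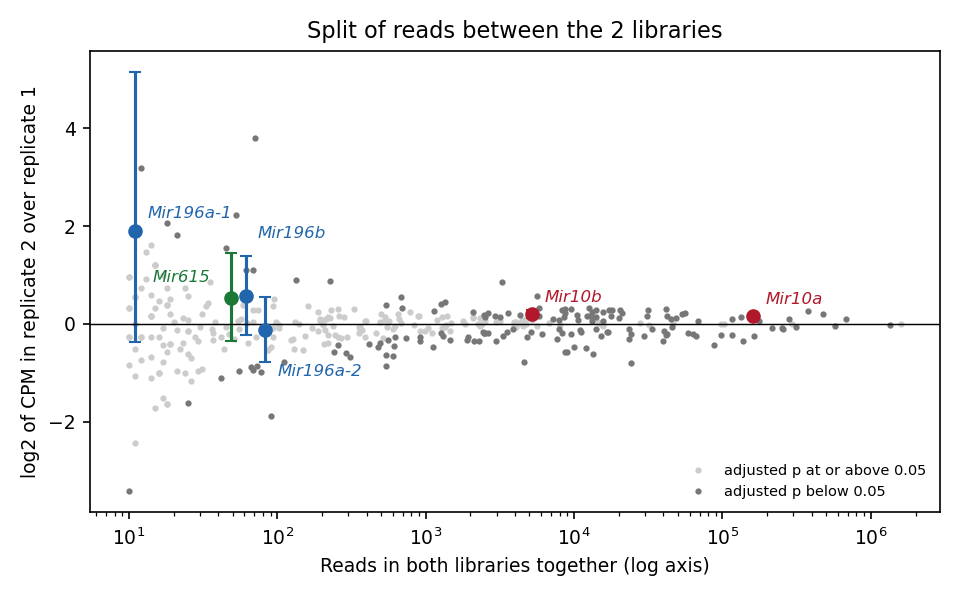
Split of reads between the libraries. Each point is 1 of 374 tested genes with reads in both libraries (1 tested gene with no read in one of them is not drawn), with the reads in both libraries together on a log axis and the log2 of CPM in replicate 2 over replicate 1. Dark grey genes passed the exact test. Coloured points are the Hox cluster miRNAs with exact 95% intervals. Mir10a and Mir10b lie just above 0 at 0.16 and 0.19, and the intervals of the other 4 genes cross 0.

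The genes directly above and below each detected member in mean CPM were taken as its neighbours in level. They were not chosen by their pattern over the 2 libraries. Mir10a stood between Mir30a at 16474 ± 1951 CPM and Mir30e at 14040 ± 2424 CPM (SD, n = 2), both members of the broadly expressed miR-30 family. The ranges of all 3 over the libraries overlapped in part, with Mir30a at 17854 and 15095 CPM and Mir30e at 15754 and 12325 CPM. Both were lower in replicate 2, by log2 ratios of -0.24 and -0.35, where Mir10a was higher. Mir10b stood between Mir296 at 558 ± 153 CPM and Mir148a at 520.0 ± 44.2 CPM, and its range overlapped both.

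Around the low members, neighbours in rank also had few reads. Mir196a-2 stood between Mir18b, of a miR-17~92 paralogue, at 8.78 ± 2.25 CPM and Mir29b-1 at 7.97 ± 3.71 CPM. Mir196b stood between Mir184 at 6.22 ± 0.0629 CPM and Mir466n at 5.93 ± 3.08 CPM. Mir615 stood between Mir6240 at 5.03 ± 4.62 CPM and Mir3058 at 4.75 ± 0.460 CPM. The range of each of these 3 members overlapped those of both its neighbours, so their order was not resolved at this depth.

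**Figure D4:**
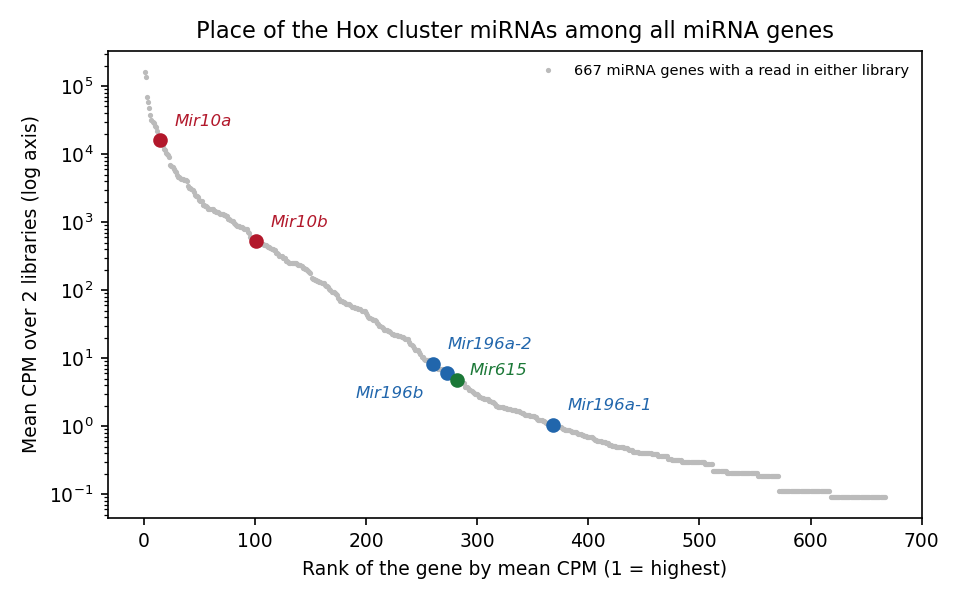
Mean CPM over 2 libraries, on a log axis, against the rank of each miRNA gene. Grey points are the 667 genes with a read in either library, and coloured points are the Hox cluster miRNAs. Mir10a stands at rank 15 and Mir10b at rank 101, and Mir196a-2, Mir196b and Mir615 stand together between ranks 260 and 282.

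The miR-99 and miR-100 genes belong to the same wider family as miR-10 but lie outside the Hox clusters. Their 5p sequences carry another seed, ACCCGUA, and the run they share with miR-10a-5p or miR-10b-5p starts 1 base nearer to the 5′ end.
miR-99a-5p: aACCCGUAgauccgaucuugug
miR-100-5p: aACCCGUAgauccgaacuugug
From base 7 of miR-10a-5p, and base 6 of the relative, miR-100-5p matches for 11 bases and miR-99a-5p for 10 bases. Mir99a stood at 31605 ± 951 CPM, Mir99b at 9942 ± 1110 CPM and Mir100 at 864 ± 90.8 CPM (SD, n = 2). Together they reached 42411 ± 1970 CPM, above the 16452 ± 1300 CPM of the miR-10 genes in both libraries.

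Hox transcripts were searched for matches to the seeds, as background to what these miRNAs can pair with. No mRNA was measured. The search covered the longest annotated 3′ UTR of each gene in GENCODE M21, on the transcribed strand. The miR-196 match, ACTACCT, occurred in 9 of 39 Hox genes (23.1%) and in 5.92% of 21707 protein-coding genes. The miR-10 match, ACAGGGT, occurred in 4 of 39 Hox genes (10.3%) and in 12.1% of all. The miR-615-3p match, GGCTCGG, occurred in 1 of 39 Hox genes (2.56%) and in 2.23% of all. The median length searched was 969 bases in Hox genes and 919 in all.

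The most complementary Hox site for miR-196a was in Hoxb8, a known target of this miRNA. It is shown as DNA letters of the mRNA. Bases that form Watson-Crick pairs with miR-196a-5p are in capitals and the other base is in lower case.
Hoxb8 site: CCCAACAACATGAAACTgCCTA
It begins at base 421 of the 3′ UTR and pairs at 21 of 22 positions by Watson-Crick rules, against 20 of 22 for miR-196b-5p. The next best Hox gene reached 15 of 22 for either sequence. The base in lower case is a G opposite a U of the seed, a G:U wobble and not a Watson-Crick pair. Hoxb8 is therefore not among the 9 genes with an exact seed match. In the newborn lung, the reads counted on the miR-196 genes came to 63 in replicate 1 and 91 in replicate 2, against 70408 and 94259 on the miR-10 genes. These counts do not give the amount of miRNA that can pair with this site. Reads of exactly miR-196a-5p are taken to be in neither Mir196a row, and the arms were not counted apart.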

How the data were processed

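For each library the authors deposited a table of raw counts, in whole reads per miRNA gene, for either strand, the gene's own strand and the opposite strand. Assembly mm10 and annotation GENCODE M4 are named in the deposited description of the files, while aligner, counter and trimming were not given in the sources used here. Own-strand reads were used, being 98.2% (replicate 1) and 98.0% (replicate 2) of those on miRNA genes. Totals left out the 4 rows without a gene name. Of 8277063 and 10391718 reads, 34.6% and 36.7% mapped to several places, 8.49% and 8.69% were unmapped, 2.18% and 2.41% lay on no feature and 0 were ambiguous. Symbols and positions came from GENCODE M21, whose assembly GRCm38 is mm10, and which matched 1894 of 1973 identifiers.

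CPM, ratios, exact Clopper-Pearson intervals and exact binomial tests with Benjamini-Hochberg adjustment, over genes with 10 or more reads in all, were computed with Python 3.11.15 and SciPy 1.17.1. With 1 group, edgeR's quasi-likelihood test could not be fitted. TMM sizes of edgeR 4.0.16 and DESeq2 1.42.0 size factors were alternatives. The test was checked on data simulated with counting error only, so the check does not cover the larger difference between these libraries. Named genes were the 6 members, other rows inside Hox clusters, Mir99a, Mir99b and Mir100, rows sharing a member seed, and the neighbours in rank of each detected member. The members and lists were chosen with earlier results of these data known.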

Additional observations from a re-analysis of the deposited data

How the results depend on the processing

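Levels fell when scaled to all reads of a library, because 54.8% and 52.2% of the reads in replicates 1 and 2 lay on miRNA genes. Per 1000000 of all reads Mir10a stood at 8511, Mir10b at 278, Mir196a-2 at 4.42, Mir196b at 3.21 and Mir615 at 2.58, the miR-10 sum at 8788 and the miR-196 sum at 8.18. With a minimum of 100 reads in each library 2 of the 6 genes counted as detected. With a minimum of 1 read all 6 did, Mir196a-1 included. The number of all genes called in the split between the libraries went from 159 to 167 with TMM, 166 with DESeq2, 147 without the filter and 165 on either strand. Under each of these Mir10a and Mir10b passed, the other 4 members did not, and no member changed direction. No ratio between members changed direction with either-strand reads, 1 read added or a library left out. TMM moved every log2 ratio between the libraries by 0.032 and DESeq2 by 0.028. No paired analysis was possible because the study has 1 group. Depth limits the miR-196 genes and Mir615, and reads with several positions limit the levels of Mir196a-1 and Mir196a-2. Since such reads are left out of every row, they also limit the shares and ranks of all 6 genes.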

Other observations

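The miR-196 seed also lies inside let-7, the large family of miRNAs that accumulates as tissues mature. The 7 bases AGGUAGU, bases 2 to 8 of miR-196a-5p and miR-196b-5p, stand at bases 3 to 9 of 8 of the 9 mature let-7 and miR-98 5p sequences in the RefSeq table. They occur in 13 of 1679 differently named mature sequences, or 0.774%. The seeds are shifted by 1 base and are not the same.

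Almost no reads lay on the strand opposite these genes. The 6 genes had 0 such reads in replicate 1 and 1 in replicate 2, on Mir10a, while 83568 and 108456 reads lay opposite miRNA genes as a whole. This was not particular to these genes. Mir322 had 0 and 1 such reads and Mir143 had 0 and 0, while Mir497b had 13790 and 17733.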
